A study of Mus musculus with 12 samples.

Results

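The interaction of cocaine and l-methionine (MET) was examined on the miRNAs of the mouse prefrontal cortex. For each miRNA it is the cocaine difference measured with MET, MC minus MS, less the cocaine difference measured with saline, CS minus SS, on a log2 scale. A positive value means that MC stood higher against MS than CS stood against SS, and a value of 1 is a 2-fold difference between the 2 cocaine ratios. The miRNAs were chosen by count alone, as those with at least 5 counts in at least 3 of the 12 libraries, and 780 of the 1422 miRNAs with any count met this rule. They were 746 known mature miRNAs and 34 miRNAs predicted by the authors. Of the 642 miRNAs left out, 549 reached 5 counts in no library, 63 in 1 library and 30 in 2 libraries. The members with the lowest totals over the 12 libraries were miR-654-3p with 24 counts, miR-3963 with 26 and miR-669o-3p with 29. The highest totals among the excluded miRNAs were the 43 counts of miR-7236-3p, the 41 of miR-7048-3p and the 40 of miR-7032-3p, each with at least 5 counts in 2 libraries only.

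The mice were adult males of the C57BL/6 strain that went through conditioned place preference (CPP), a test of how long an animal stays where it received a drug. SS mice received saline only, and CS mice received cocaine at 20 mg/kg and saline. MS mice received MET under the skin at 1 g/kg with 2 injections a day over 10 days, together with saline, and MC mice received that MET course with cocaine. A legend in the paper states a lower MET dose than the labels and the methods. The medial prefrontal cortex was taken 2 h after the test, and each group had 3 libraries, each made from the pooled RNA of a pair of animals. The p-values therefore measure the spread between pools. The replicates were numbered 12, 13 and 14 in SS, 8, 9 and 10 in CS, 3, 4 and 23 in MS and 16, 17 and 20 in MC, and values for single libraries are given in this order.

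Mature miRNAs are short RNAs cut from hairpin precursors, and they guide Argonaute proteins to messenger RNAs that pair with bases 2 to 8 of the miRNA, the seed. miRNAs with the same seed share most of their predicted targets, and miRNAs of one genomic cluster are often cut from one transcript. Methionine is the precursor of S-adenosylmethionine, the methyl donor of DNA methyltransferases, and miRNAs of the miR-29 family are known to act on the messenger RNAs of such enzymes.

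The mature sequences of the miRNAs with the largest group values below are shown first, because many of them share seeds. They were copied from RefSeq annotation of GRCm38.p6, in which 636 of the 746 known miRNAs tested were matched by name, and capitals mark the seed. The miR-200 family holds a pair of seeds that differ at 1 base, and the miR-183 cluster holds related seeds.
miR-200b-3p: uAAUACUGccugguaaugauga
miR-200c-3p: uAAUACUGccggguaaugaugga
miR-429-3p: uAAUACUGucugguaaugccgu
miR-141-3p: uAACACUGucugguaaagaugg
miR-200a-3p: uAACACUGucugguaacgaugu
miR-183-5p: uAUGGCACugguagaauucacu
miR-96-5p: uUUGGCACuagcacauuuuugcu
miR-182-5p: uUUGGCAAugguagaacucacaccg
The 3 miR-29 arms share 1 seed, and miR-106b-5p carries the seed of the miR-17 family.
miR-29a-3p: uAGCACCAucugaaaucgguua
miR-29b-3p: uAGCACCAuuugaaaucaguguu
miR-29c-3p: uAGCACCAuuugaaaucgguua
miR-106b-5p: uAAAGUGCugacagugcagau
The miRNAs below are those on the positive side, and let-7b-5p and let-7c-5p share the let-7 seed.
miR-484: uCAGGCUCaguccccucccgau
miR-543-5p: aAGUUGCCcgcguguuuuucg
miR-99b-5p: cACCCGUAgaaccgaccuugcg
miR-193b-3p: aACUGGCCcacaaagucccgcu
miR-149-5p: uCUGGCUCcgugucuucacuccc
let-7b-5p: uGAGGUAGuagguugugugguu
let-7c-5p: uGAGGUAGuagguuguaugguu

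The libraries held between 7.77 and 11.1 times 1000000 counts, of which miRNAs made up 56.1% to 67.9%. At this depth 3 counts correspond to between 0.271 and 0.386 counts per 1000000 (CPM), which as a floor allows for counting error alone. Values below are CPM scaled with TMM factors, called normalised CPM. Across the 780 miRNAs, MC replicate 16 stood apart, with correlations of 0.925 to 0.946 with the other libraries, a median of 0.940, where the median for each of the others was at least 0.974. MC replicate 16 had a TMM factor of 0.675, against 0.826 to 1.26 in the others, which raised its normalised CPM. It also held the fewest counts and the lowest miRNA share of the 12 libraries. The libraries were also divided into sets by clustering the profiles of 125 miRNA precursor families, which are not among the 780. The number of sets was fixed at 3. All MS libraries were in 1 set, together with SS replicates 13 and 14 and MC replicate 20, and none of the CS libraries was in it. This set held 5 of the 6 libraries without cocaine and 1 of the 6 with it, so library set was confounded in part with cocaine and with MET. Neuron-enriched miRNAs such as miR-124 and miR-9, which mark the tissue, summed to between 126333 and 352499 normalised CPM in every library.

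No miRNA passed the test of the interaction. With edgeR's quasi-likelihood test and Benjamini-Hochberg adjustment, 0 of 780 miRNAs (0%) were called, the limit being an adjusted p of 0.05, and the smallest adjusted p was 0.804. At an unadjusted p under 0.05 there were 34 miRNAs, 4.36% of those tested, of which 21 (2.69%) were positive and 13 (1.67%) negative. DESeq2 also called 0 miRNAs, with 43 at an unadjusted p under 0.05, and limma voom with library weights called 0, with 45. Leaving out any 1 of the 12 libraries left 0 called as well, with between 17 and 86 miRNAs at an unadjusted p under 0.05.

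The values nonetheless covered a wide range. They ran from -5.19 to 6.84, both ends being predicted miRNAs, and the 746 known miRNAs ran from -3.74 to 3.41. The median log2 interaction was 0.06, with quartiles of -0.43 and 0.67, and 422 miRNAs were positive and 358 negative. Scaling by the library total without TMM factors moved this median to -0.27, so a value near 0 takes its sign from the scaling. The median standard error was 0.684. It was 1.10 for the 169 miRNAs under 1 CPM, 0.706 for the 265 from 1 to 10 CPM, 0.541 for the 171 from 10 to 100 CPM, 0.523 for the 107 from 100 to 1000 CPM and 0.379 for the 68 above. The 95% interval lay within -1 and 1 for 49 miRNAs and within -2 and 2 for 364, so for most of the 780 a difference of 2-fold between the cocaine ratios was not excluded at this number of libraries. Of the 34 miRNAs with an unadjusted p under 0.05, 16 had a mean under 10 CPM, and the other 18 (11 positive and 7 negative) are described below, none of them called.

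**Figure D1:**
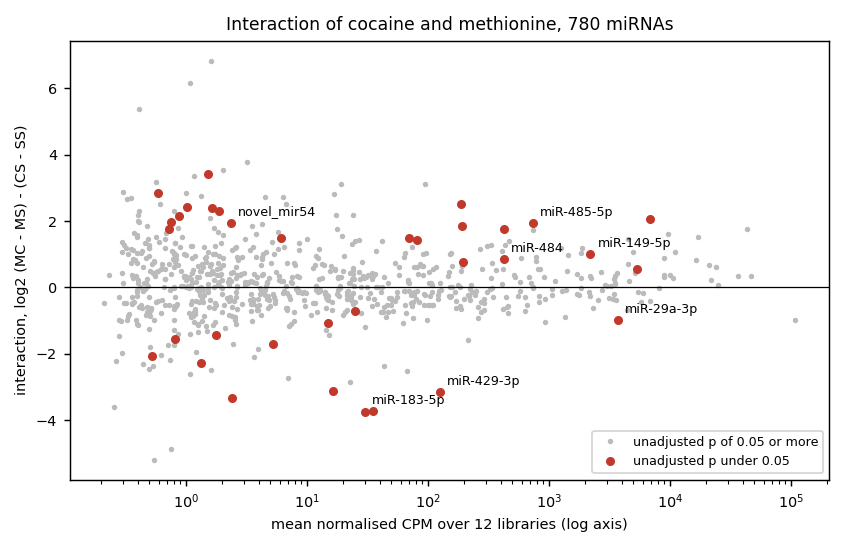
Log2 interaction (vertical axis) against mean normalised CPM over the 12 libraries (horizontal log axis) for the 780 miRNAs, 1 point each. The 34 red points have an unadjusted p under 0.05, none was called, and the spread narrows from the left, under 1 CPM, to the right, over 1000 CPM.

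The cocaine differences that form the interaction were themselves not called for any miRNA. CS minus SS had 0 called (0%) and 22 at an unadjusted p under 0.05 (2.82%), 9 positive (1.15%) and 13 negative (1.67%), and MC minus MS had 0 called (0%) and 65 at that level (8.33%), 49 positive (6.28%) and 16 negative (2.05%). Without MC replicate 16 these counts were 56 for CS minus SS and 32 for MC minus MS. With voom and library weights they were 71 and 30, so which count was larger depended on the fit. The CS minus SS and MC minus MS differences share no library. Across the 780 miRNAs their log2 values had a Pearson's r of 0.024, a description over miRNAs that come from the same libraries, and the signs were opposite for 410 (52.6%). The MET differences, which share the same libraries, had 0 called as well, with 75 miRNAs (9.62%) at an unadjusted p under 0.05 for MS minus SS and 58 (7.44%) for MC minus CS. The CS minus SS values had quartiles of -0.26 and 0.31, and the MC minus MS values had quartiles of -0.28 and 0.58.

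The most negative values among miRNAs of at least 10 CPM belonged to the miR-183 cluster and the miR-200 family. These miRNAs are abundant in epithelia and sensory cells, where miR-200 holds back the factors Zeb1 and Zeb2 and the miR-183 cluster serves sensory neurons and photoreceptors. All 11 tested members had a negative interaction, between -3.74 and -1.94 with a median of -2.72, where the median over all 780 was 0.06. Of the 11, 4 had an unadjusted p under 0.05 and 0 were called.

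miR-183-5p (chr6:30169711-30169732, minus strand, GRCm38, with no other gene annotated there) was at 14.9, 14.7 and 8.31 normalised CPM in SS, 13.7, 26.4 and 138 in CS, 72.2, 5.21 and 31.9 in MS, and 10.9, 12.8 and 14.4 in MC. CS replicate 10 and MS replicate 3 were the highest libraries, and CS overlapped SS as MC overlapped MS. The log2 interaction of -3.74 (SE 1.27, adjusted p = 0.804, edgeR) was made of a CS minus SS value of 2.23 (SE 0.91) and an MC minus MS value of -1.52 (SE 0.89). miR-182-5p, from the same cluster at chr6:30165962-30165986, was at 12.1, 10.2 and 6.63 normalised CPM in SS, 9.16, 16.3 and 74.1 in CS, 31.2, 3.28 and 16.1 in MS, and 6.49, 4.39 and 8.80 in MC. The same pair of libraries was highest, and its interaction was -3.14 (SE 1.17). miR-96-5p (chr6:30169506-30169528) was lower, from 0.954 to 22.4 normalised CPM, and its interaction was -2.72 (SE 1.39).

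In the miR-200 family, miR-429-3p (chr4:156053916-156053937, minus strand, in an exon of the non-coding Gm13648 and an intron of Ttll10) was at 60.1, 74.6 and 69.3 normalised CPM in SS, 43.2, 94.1 and 489 in CS, 336, 41.2 and 133 in MS, and 44.3, 74.7 and 57.6 in MC. CS replicate 10 was far above the other CS libraries, and the groups overlapped. The interaction was -3.15 (SE 1.18, adjusted p = 0.804, edgeR). Its neighbours miR-200a-3p (chr4:156054911-156054932) and miR-200b-3p (chr4:156055685-156055706) had values of -2.51 (SE 1.18) and -2.37 (SE 1.30). miR-141-3p, from the second miR-200 cluster at chr6:124717917-124717938, was at 11.1, 7.96 and 7.85 normalised CPM in SS, 8.88, 21.5 and 140 in CS, 104, 8.40 and 40.3 in MS, and 6.68, 25.0 and 40.4 in MC. It too was highest in CS replicate 10 and MS replicate 3, with an interaction of -3.74 (SE 1.47). Its cluster partner miR-200c-3p (chr6:124718324-124718346) differed in that MC replicate 20 was the highest library, at 107 normalised CPM against 61.9 in CS replicate 10, and its interaction was -2.84 (SE 1.65).

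Summed over the 11 members, the list was at 170, 163 and 144 normalised CPM in SS, 132, 264 and 1294 in CS, 900, 102 and 350 in MS, and 107, 211 and 377 in MC. Of the members, miR-200b-5p and miR-183-3p were at 0 in at least 1 library. Without CS replicate 10 the median interaction was -1.51, without MS replicate 3 it was -1.62, and without both it was -0.41, an alternative added after seeing the data. In that last fit miR-183-5p was at -1.26, miR-429-3p at -0.64, miR-141-3p at -0.81 and miR-200b-3p at 0.20. MS replicate 3 was also the highest library for the 6 tested miRNAs of liver and gut, with a sum of 3748 normalised CPM against 147 to 582 in the other 11. Most of this was miR-122-5p, the abundant miRNA of hepatocytes, at 2437 normalised CPM in MS replicate 3 and at most 208 elsewhere. In CS replicate 10 the liver and gut sum was 147, the lowest of the 12. The part of these markers in the interaction was not tested. In bulk RNA, fewer cells of a type and less RNA per cell cannot be told apart.

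**Figure D2:**
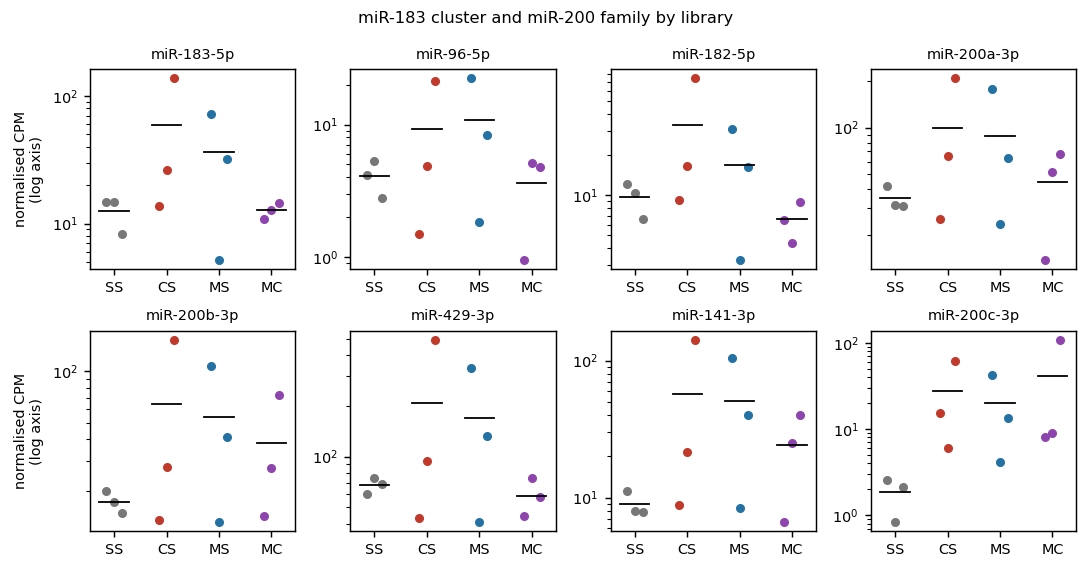
Normalised CPM (log axes) of 3 miRNAs of the miR-183 cluster and 5 of the miR-200 family in the 3 libraries of each group (points, in the order of the replicates given above) with the group means (lines). In miR-183-5p the highest CS point is at 138 and the highest MS point at 72.2, and the remaining points of all groups lie between 5.21 and 31.9.

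The tested arms of the miR-29, miR-148 and miR-152 families, of which some are known to act on DNA methyltransferase messenger RNAs, had mostly negative values without a called member. Of 10 tested members 7 had a negative interaction, 1 of them with an unadjusted p under 0.05, 0 were called, and the median was -0.45. The 10 included -5p arms of miR-29, which do not carry the miR-29 seed shown above. These were miR-29c-5p at -0.37, miR-29a-5p at -0.83, miR-29b-1-5p at 1.40 and miR-29b-2-5p at 0.50. miR-29a-3p (chr6:31062673-31062694, minus strand, no other gene annotated) was the most abundant, at 2381, 1975 and 2322 normalised CPM in SS, 2754, 2747 and 3905 in CS, 4584, 6717 and 5402 in MS, and 2270, 5015 and 4656 in MC. All CS and all MS libraries lay above all SS libraries, and MC spanned from the SS level in replicate 16 to the MS level in the other two. Its interaction was -0.98 (SE 0.42, adjusted p = 0.804, edgeR), with 0.49 (SE 0.30) for CS minus SS and -0.48 (SE 0.30) for MC minus MS. The MET difference without cocaine, MS minus SS, was 1.32 (SE 0.30).

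miR-29c-3p (chr1:195037600-195037621, in an exon of A330023F24Rik and opposite to an exon of Cd46) had the same order of groups. It was at 568, 511 and 503 normalised CPM in SS, 691, 761 and 985 in CS, 1108, 1603 and 1328 in MS, and 449, 1358 and 1203 in MC. Here again all CS and MS libraries were above SS, MC replicate 16 was the lowest library of all, and the interaction was -1.05 (SE 0.50). Without MC replicate 16 the interaction of both miR-29a-3p and miR-29c-3p was -0.66. miR-29b-3p had -0.74 (SE 0.64) and -0.30 without that library, while miR-152-3p was at 0.02 and miR-148b-3p at -0.17. The median of the list was -0.15 without MC replicate 16, with 8 of 10 members negative, against -0.03 for all miRNAs in that fit.

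Members of the miR-17 seed family, which act on cell cycle genes, also had negative values without a call. All 5 miRNAs matched to this seed were negative, between -1.08 and -0.22 with a median of -0.38. The median was -0.12 without MS replicate 3 and -0.21 without MC replicate 16, and with the library total as scale it was -0.69 against -0.27 over all miRNAs. The most negative was miR-106b-5p (chr5:138165787-138165807, in an intron of Mcm7), at 9.26, 10.0 and 10.5 normalised CPM in SS, 13.4, 11.3 and 14.2 in CS, 22.5, 28.3 and 16.8 in MS, and 8.20, 20.0 and 13.6 in MC. CS and MS lay above SS without overlap, while MC overlapped every other group, and the interaction was -1.08 (SE 0.47, adjusted p = 0.804, edgeR). For the most abundant of the family, miR-93-5p, cut from the same Mcm7 transcript, the value was -0.23.

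miR-125b-2-3p, the minor arm of a miR-125b precursor (chr16:77646318-77646339, in an intron of Mir99ahg), differed from the miR-29 arms in its pattern. It was at 19.1, 23.3 and 22.3 normalised CPM in SS, 20.4, 23.8 and 25.4 in CS, 34.6, 30.3 and 35.2 in MS, and 20.6, 23.2 and 21.5 in MC. MS alone stood above the other libraries, and SS, CS and MC covered the same range. The interaction was -0.72 (SE 0.31, adjusted p = 0.804, edgeR), with 0.10 (SE 0.22) for CS minus SS and -0.62 (SE 0.22) for MC minus MS, and it lay between -0.84 and -0.66 when any single library was left out.

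Few miRNAs separated the groups on both sides. In 5 of the 780 (0.641%) the 3 CS libraries lay all on one side of SS and the 3 MC libraries all on the other side of MS. In 4 of them (0.513%), novel_mir54, miR-484, miR-543-5p and miR-99b-5p, CS was below SS and MC above MS. In 1 (0.128%), miR-873a-5p, CS was above SS and MC below MS. Both cocaine groups were above their controls in 1 miRNA and below them in 5. Taken singly, CS was clear of SS in 81 miRNAs (10.4%) and MC clear of MS in 67 (8.59%). With 3 libraries against 3, some miRNAs separate by order alone. None of these shares was tested against that rate, so separation is only a description here. With the library total as scale only miR-873a-5p of the 5 kept its pattern.

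miR-484, known to act on the mitochondrial fission gene Fis1 (chr16:14159630-14159651, opposite to an intron of Marf1), was at 458, 600 and 558 normalised CPM in SS, 449, 414 and 356 in CS, 306, 362 and 299 in MS, and 514, 432 and 377 in MC. The group order was SS, then MC and CS, then MS. Its interaction was 0.86 (SE 0.31, adjusted p = 0.804, edgeR), made of -0.41 (SE 0.22) for CS minus SS and 0.45 (SE 0.22) for MC minus MS. It stayed between 0.70 and 0.96 when 1 library was left out. With the library total as scale it was 0.44, where the median over all miRNAs was -0.27.

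miR-543-5p, from the imprinted Dlk1-Dio3 region (chr12:109717269-109717289), was at 223, 220 and 217 normalised CPM in SS, 195, 171 and 168 in CS, 143, 170 and 173 in MS, and 262, 193 and 207 in MC. SS was the tightest group and MC reached its level. The interaction was 0.75 (SE 0.30). miR-99b-5p, which is clustered with let-7e and miR-125a (chr17:17830194-17830215, in an intron of Spaca6), was at 7230, 6840 and 5679 normalised CPM in SS, 5080, 4777 and 5606 in CS, 4381, 4685 and 4479 in MS, and 4948, 4861 and 5728 in MC. CS replicate 10 came close to SS replicate 14, and MC replicate 17 stood just above the highest MS library. The interaction was 0.55 (SE 0.25), and 0.21 with the library total as scale, where the median over all miRNAs was -0.27.

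The smallest p of the 780 was that of a predicted miRNA, novel_mir54 (chr1:38627245-38627306, minus strand of mm10, in an intron of Aff3), at 5.64, 3.98 and 3.46 normalised CPM in SS, 2.62, 1.76 and 1.69 in CS, 1.25, 0.840 and 1.17 in MS, and 2.10, 1.50 and 2.34 in MC. SS was highest and MS lowest, with CS and MC between them. Its interaction was 1.95 (SE 0.49, adjusted p = 0.804, edgeR). It was between 1.63 and 2.19 with any library left out. miR-873a-5p (chr4:36668556-36668576, in an intron of Lingo2) was as sparse, at 0.403, 0.482 and 1.03 normalised CPM in SS, 1.12, 2.20 and 1.17 in CS, 2.40, 1.43 and 2.83 in MS, and 0.763, 1.07 and 1.17 in MC. It had the reverse order, with SS lowest and MS highest, and an interaction of -2.29 (SE 0.67, adjusted p = 0.804). At these levels a library held few counts, between 10 and 42 for novel_mir54 and between 3 and 29 for miR-873a-5p. The 34 predicted miRNAs as a group had a median of 0.40 and spanned the whole range from -5.19 to 6.84.

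Among more abundant miRNAs, miR-193b-3p (chr16:13449570-13449591) and miR-149-5p (chr1:92850381-92850403, in an intron of Gpc1) were clear of overlap on the saline side only. miR-193b-3p was at 60.1, 161 and 100 normalised CPM in SS, 59.5, 50.0 and 54.1 in CS, 52.6, 84.4 and 66.9 in MS, and 109, 96.0 and 76.4 in MC. CS lay just below the lowest SS library, SS replicate 13 stood well above the rest, and MC overlapped MS. The interaction was 1.43 (SE 0.49), the smallest p among the positive miRNAs over 10 CPM, and 0.95 without SS replicate 13. miR-149-5p was at 2647, 2823 and 2509 normalised CPM in SS, 2119, 1821 and 1928 in CS, 1644, 1553 and 1895 in MS, and 3384, 1674 and 2397 in MC. CS and MS were both below SS, and MC ran from the MS range to above SS. Its interaction was 0.99 (SE 0.35), and 0.74 without MC replicate 16.

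**Figure D3:**
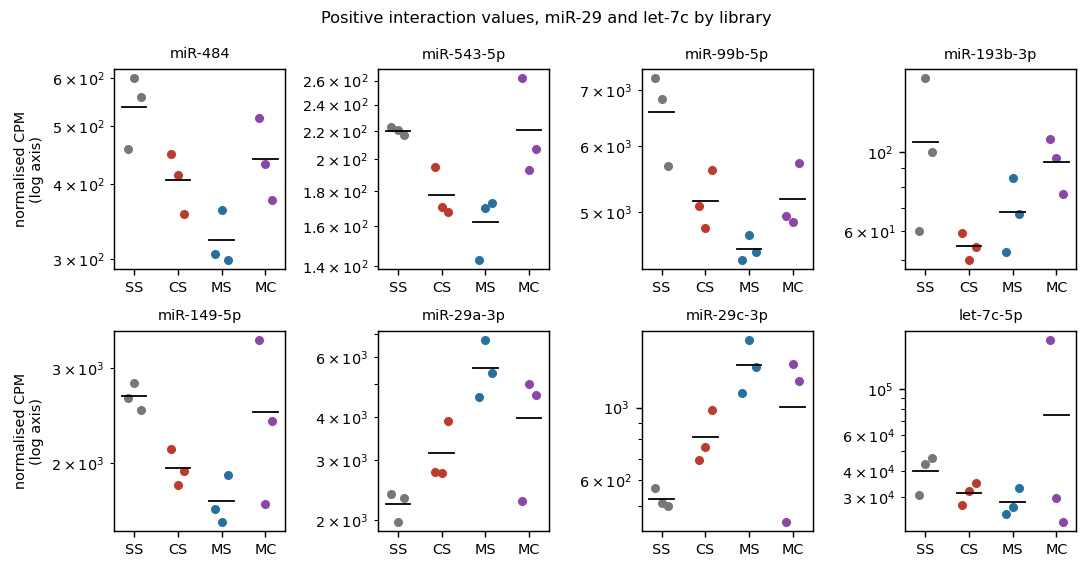
Normalised CPM (log axes) of 5 miRNAs with a positive interaction, 2 miR-29 arms with a negative one and let-7c-5p, in the 3 libraries of each group (points) with the group means (lines). For miR-484 the CS points lie below SS and the MC points above MS, and for let-7c-5p a single MC point at 171899 stands apart from the rest.

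Another group of positive values rested in part on MC replicate 16 and stayed positive without it. miR-485-5p, known to act on synaptic vesicle gene Sv2a, was at 641, 803 and 633 normalised CPM in SS, 414, 454 and 638 in CS, 423, 412 and 574 in MS, and 2880, 502 and 538 in MC. The first MC library, replicate 16, was far above all others, while the remaining MC libraries were within the CS and MS ranges. The interaction of 1.94 (SE 0.80) was 0.64 without that library. miR-323-5p, from the same Dlk1-Dio3 region (chr12:109712523-109712544), was at 665 normalised CPM in MC replicate 16 and between 101 and 208 in the other 11 libraries. Its interaction was 1.85 (SE 0.77) and 0.68 without that library. In the same way miR-1981-5p (chr1:184822465-184822488, in an intron of Marc2) was at 1526 normalised CPM in MC replicate 16 and between 250 and 461 elsewhere, with an interaction of 1.77 (SE 0.76) that was 0.57 without it. miR-128-1-5p, the minor arm of the neuronal miR-128 (chr1:128202369-128202389, in an intron of R3hdm1), was at 165 against 37.2 to 95.2 elsewhere, with 1.49 (SE 0.61) and 0.77 without it. MS lay wholly below SS for each miRNA of this group, and CS did so for miR-128-1-5p. For miR-1981-5p MC lay wholly above MS.

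The let-7 family, known for promoting differentiation and abundant in brain, held values that rested on MC replicate 16 as well. All 10 miRNAs matched to the let-7 seed had a positive interaction, between 0.12 and 1.75 with a median of 0.87, and 0 were called. let-7c-5p (RefSeq places it at 2 loci, the first at chr15:85706616-85706637) was at 30795, 43339 and 46289 normalised CPM in SS, 27578, 32092 and 34976 in CS, 24789, 26925 and 33402 in MS, and 171899, 29880 and 22840 in MC. The other MC libraries lay within or below the MS range, and CS and MS overlapped SS. The interaction of 1.75 (SE 0.84) was 0.26 without that library. For let-7b-5p the value of 1.52 (SE 0.88) turned to -0.11, and for let-7a-5p 0.84 (SE 0.44) became 0.30. Without MC replicate 16 the median of the 10 was 0.32 with 9 positive. With the library total as scale it was 0.37, against -0.27 over all miRNAs. The sum over the 23 tested arms of let-7 and miR-98 was 371295 normalised CPM in MC replicate 16 and 87560 to 143756 in the other 11 libraries.

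Over all 780 miRNAs, leaving out MC replicate 16 changed the sign of 192 interaction values and moved 88 by more than 1. Of the 34 with an unadjusted p under 0.05, 19 stayed under it, 9 positive and 10 negative. In that fit 46 miRNAs were under 0.05 and 0 were called.

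**Figure D4:**
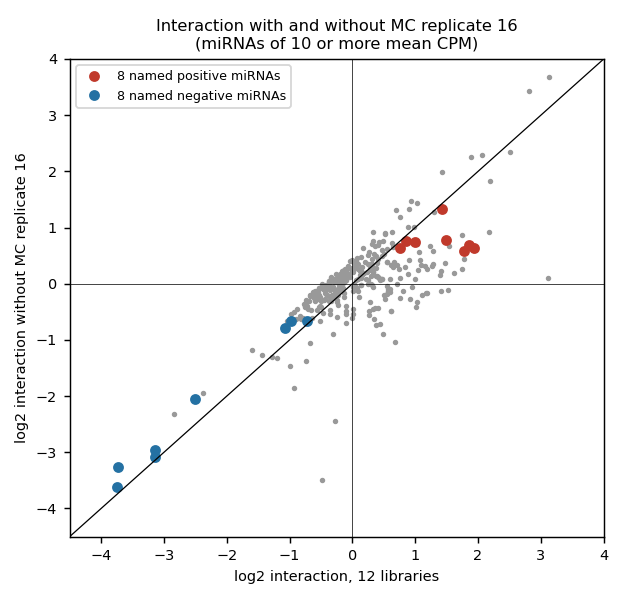
Log2 interaction without MC replicate 16 (vertical axis) against the log2 interaction over the 12 libraries (horizontal axis) for miRNAs of at least 10 mean normalised CPM. Points on the diagonal line are unmoved. The 8 named negative miRNAs (blue) stay near it, and of the 8 named positive miRNAs (red) miR-485-5p moves from 1.94 to 0.64, miR-323-5p from 1.85 to 0.68 and miR-1981-5p from 1.77 to 0.57.

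The miRNAs of the gene that gives miR-132 and miR-212, a target of the activity-dependent factor CREB, had 4 of 4 arms positive with a median of 0.44. With the library total as scale this median was 0.06, against -0.27 over all miRNAs. On that scale miR-132-5p and miR-212-3p turned to -0.19 and -0.09. miR-212-3p (chr11:75173443-75173464) was at 1863, 2466 and 2752 normalised CPM in SS, 2553, 1988 and 1961 in CS, 1918, 2112 and 1909 in MS, and 2741, 2170 and 1962 in MC. All 4 groups overlapped, and the interaction was 0.33 (SE 0.31), with a 95% interval from -0.35 to 1.02. miR-212-5p had the highest value of the gene, 2.50 (SE 1.12), with 76.5, 1014 and 215 normalised CPM in SS, 193, 199 and 86.0 in CS, 48.0, 70.7 and 30.7 in MS, and 125, 142 and 43.0 in MC. SS replicate 13 was far above every other library, and without it the interaction was 0.86. miR-132-3p had 1362 normalised CPM in SS replicate 14 against 253 to 638 elsewhere, and its interaction of 0.54 (SE 0.78) was -0.63 without that library.

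Among miRNAs studied before in cocaine exposure or seeking, 9 of 12 tested arms were positive, with a median of 0.26. With the library total as scale it was -0.12, against -0.27 over all miRNAs. miR-124-3p, the leading miRNA of neurons and the most abundant of all, was at 182484, 213413 and 72719 normalised CPM in SS, 23764, 142843 and 163859 in CS, 164309, 29913 and 173689 in MS, and 68683, 33040 and 28216 in MC. Low and high libraries occurred in SS, CS and MS, and MC held no library above 68683. The interaction was -0.998 (SE 1.05), with a 95% interval from -3.30 to 1.30. miR-181a-5p, known to act on a glutamate receptor subunit, was steadier, at 23014, 27196 and 27320 normalised CPM in SS, 19037, 18717 and 18541 in CS, 24183, 25633 and 23020 in MS, and 36817, 21211 and 22515 in MC. CS lay below SS and below MC without overlap, and the interaction was 0.61 (SE 0.30), or 0.34 without MC replicate 16.

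Among the 10 most abundant miRNAs were also miR-9-5p, miR-26a-5p, miR-99a-5p, miR-128-3p and miR-138-5p. miR-9-5p, a regulator of neural progenitors, had an interaction of 0.36 (SE 0.36), miR-26a-5p 0.35 (SE 0.27), miR-99a-5p 0.08 (SE 0.31) and miR-128-3p 0.21 (SE 0.30). The 95% interval of miR-26a-5p ran from -0.25 to 0.95, and those of miR-99a-5p and miR-128-3p from -0.60 to 0.77 and from -0.44 to 0.87, so these 3 stayed within -1 and 1. miR-9-5p, miR-26a-5p and miR-99a-5p each had CS and MS wholly below SS, while MC overlapped MS. miR-138-5p, known to limit the size of dendritic spines, was at 22495, 23432 and 17375 normalised CPM in SS, 20365, 15794 and 21126 in CS, 18291, 18483 and 18531 in MS, and 36965, 18706 and 23611 in MC. MC was above MS without overlap, CS overlapped SS, and the interaction was 0.66 (SE 0.35), or 0.38 without MC replicate 16.

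The 85 tested miRNAs of the imprinted Dlk1-Dio3 region, a large cluster expressed from the maternal chromosome in neurons, had a median of 0.04, with 48 positive and 37 negative. Of the 85, 4 had an unadjusted p under 0.05, where 4.36% of all 780 did. All 4 were positive, as were 21 of the 34 over all miRNAs. They were miR-485-5p, miR-543-5p, miR-323-5p and the sparse miR-667-5p, whose value was 2.17 (SE 0.95). The region's most abundant member, miR-127-3p (chr12:109592888-109592909, opposite to an exon of Rtl1), had 1.08 (SE 0.51) and 0.42 without MC replicate 16, where it stood at 26974 normalised CPM against 7109 to 11548 elsewhere. Neuron-enriched miRNAs were split evenly, with 12 of 24 positive and a median of 0.03.

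The remaining lists, of other cell types the dissected tissue could hold, had no called member. The 6 tested vascular arms, led by miR-126a-3p of endothelium, were all negative with a median of -0.26. In MC replicate 16 their sum was 5616 normalised CPM against 9877 to 13292 in the other libraries. Without that library 4 were negative with a median of -0.19. With the library total as scale the median was -0.57, against -0.27 over all miRNAs. The 7 oligodendrocyte arms of miR-219 and miR-338 had a median of -0.60 with 5 negative, and -0.16 without MC replicate 16. The 8 arms of choroid plexus and of the Htr2c gene had a median of -0.33, and -0.10 without MS replicate 3. For the 7 red blood cell arms the median was -0.06, and 0.17 without MS replicate 3. The 9 leukocyte arms had 0.41. The 5 muscle arms had 0.00298, which was -0.15 without MS replicate 3 and 0.25 without MC replicate 16, and the 4 Hox cluster arms had 0.66, which was 1.44 without MS replicate 3 and 0.32 without CS replicate 10. The liver and gut list had a median of -0.67, which was 0.82 without MS replicate 3. The leukocyte sum was lowest in CS replicates 8 and 9, at 942 and 1178 normalised CPM, and lay between 1828 and 2548 in the other libraries. The red blood cell sum was 762 normalised CPM in MC replicate 16 and between 1590 and 3915 in the others.

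**Figure D5:**
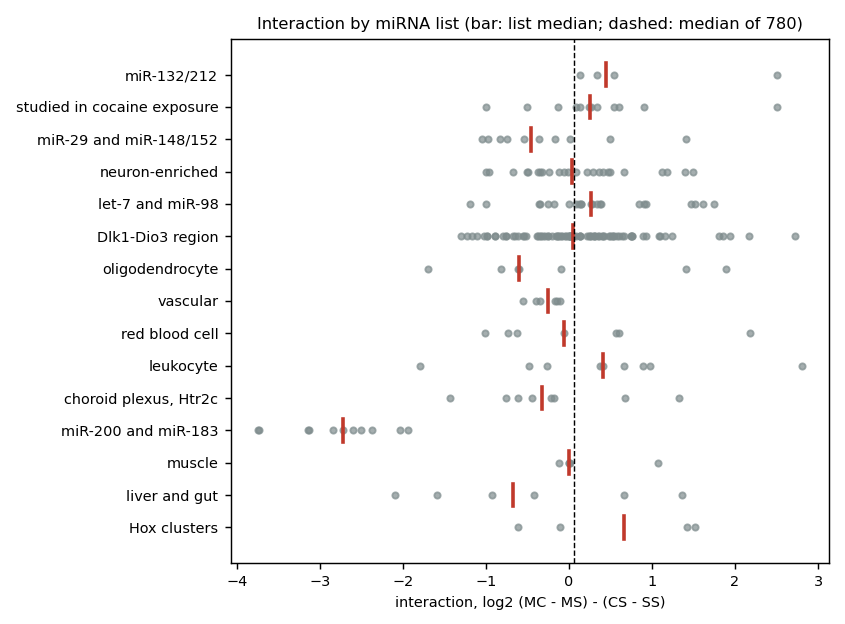
Log2 interaction (horizontal axis) of each tested member (grey points) of 15 miRNA lists (rows), with the list median (red bar) and the median of all 780 miRNAs, 0.06 (dashed line). The miR-200 and miR-183 list lies at or below -1.94 with a median of -2.72, and the other medians lie between -0.67 and 0.66.

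The 3 miRNAs that the study names by ID had interactions smaller than their standard errors. The study listed them as raised in CS against SS and lowered in MC against CS. It listed miR-330-5p also as raised in MS against SS. Those contrasts differ from the interaction, so the interaction values do not test that report. In normalised CPM the groups of each of those contrasts overlapped for all 3 miRNAs. miR-340-3p (chr11:50069762-50069783, in an intron of Rnf130) was at 145, 171 and 201 normalised CPM in SS, 181, 184 and 132 in CS, 160, 148 and 132 in MS, and 64.9, 125 and 161 in MC. All groups overlapped and the interaction was -0.27 (SE 0.45). miR-330-5p (chr7:19181486-19181507, in an exon of Eml2) was at 1017, 779 and 937 normalised CPM in SS, 1591, 876 and 701 in CS, 979, 817 and 914 in MS, and 1041, 655 and 762 in MC. Its groups overlapped as well, with an interaction of -0.35 (SE 0.43). miR-224-5p (X chromosome, in an intron of Gabre) ranged from 0.280 to 12.2 normalised CPM with libraries of SS at both ends, and its interaction of -0.49 (SE 1.81) had a 95% interval from -4.46 to 3.48.

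miR-24-3p, singled out after its values were seen because it was the most abundant miRNA with an unadjusted p under 0.05, was at 3079, 10249 and 16444 normalised CPM in SS, 2745, 2736 and 4566 in CS, 3944, 8252 and 5444 in MS, and 5313, 16344 and 3132 in MC. SS and MC each held both low and high libraries, and each cocaine group overlapped its control. The interaction was 2.06 (SE 0.92, adjusted p = 0.804, edgeR).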

How the data were processed

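Small RNA of 12 mouse prefrontal cortex libraries was analysed, with the 4 groups and replicate numbers taken from the sample labels. According to the methods of the paper, the authors filtered reads by quality, adapter and length and mapped them with AASRA, and the submitters' processing notes name Bowtie and the mm10 build. How reads shared by near-identical miRNAs were divided is not given in the sources used here. The counts the authors deposited are reads per small RNA, with no normalization. The authors also deposited TPM values, the count over the total count of the library times 1000000, which were not tested. The other classes of small RNA entered only through the library total and 1 alternative.

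The 780 miRNAs that reached 5 counts in 3 or more libraries were fitted by the quasi-likelihood method of edgeR (version 4.0.16, R 4.3.3), with 1 coefficient per group and 8 residual degrees of freedom. Library size was the total count, and TMM factors came from the tested miRNAs. The contrast (MC - MS) - (CS - SS) was adjusted by Benjamini-Hochberg over all 780 and a miRNA was called where the adjusted p did not exceed 0.05, whatever its fold. The standard error is the log2 value over the square root of F, and 95% intervals use the t distribution of the moderated fit. Normalised CPM is the count over the library total multiplied by the TMM factor, times 1000000. The 12 libraries differed beyond counting error in all 66 pairs (chi-square over 385 miRNAs, at least 211 per degree of freedom). Alternatives were DESeq2 1.42.0, limma 3.58.1 with voom and library weights, other scalings and filters, known miRNAs only, library sets as a covariate, and each library left out.

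Named miRNAs are the 8 with the smallest p in each direction among those with a mean of at least 10 CPM, since none was called, the 3 that the study names, the 10 most abundant, the most abundant members of the lists described (at most 4 each), those at the edge of the count filter, and those whose groups did not overlap on both sides. The set of miRNAs and the lists were chosen with earlier results of these data known. Lists were described by counts and medians without a test, and library sets were defined from precursor profiles after adding 0.5 CPM. Positions are from RefSeq and genes from GENCODE, both on GRCm38. Python 3.11.15 with pandas 2.3.3 and matplotlib 3.10.9 was used for tables and plots.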

Additional observations from a re-analysis of the deposited data

How the results depend on the processing

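The interaction had 0 called miRNAs in every alternative run, including the library sets as a covariate, and between 17 and 86 with an unadjusted p under 0.05. A fold limit was not run, since it cannot add to a count of 0. No paired analysis was possible because the groups share no replicate numbers. CS minus SS and MC minus MS also had 0 called in every alternative. MS minus SS had 0 called with edgeR, 19 with DESeq2, 26 with voom and 0 to 5 with a library left out, the 5 without MC replicate 16. MC minus CS had 0, and 0 to 2 with a library left out, the 2 again without MC replicate 16, and 1 without CS replicate 10 and MS replicate 3, an alternative chosen after seeing the data.

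Of 923 values of named miRNAs under alternatives, 24 changed sign, all of them for miRNAs with an unadjusted p above 0.05. With the library total and with the miRNA total as scale, the median over all 780 miRNAs was -0.27 and -0.23. In that order the interaction was -0.18 and -0.15 for miR-99a-5p and -0.17 and -0.11 for miR-128-3p. It was -0.19 and -0.15 for miR-132-5p and -0.086 and -0.053 for miR-212-3p. With voom it was -0.0035 for let-7b-5p and -0.084 for miR-132-3p, and with library sets 0.57 for miR-224-5p. Without CS replicate 10 and MS replicate 3 it was 0.20 for miR-200b-3p (from -3.24 with 1 library left out) and -0.01 for miR-132-5p. With 1 library left out it ran from -3.55 to 0.063 for miR-224-5p, -0.57 to 0.052 for miR-340-3p, -0.64 to 0.068 for miR-330-5p, -0.055 to 0.35 for miR-99a-5p, -0.11 to 1.96 for let-7b-5p, -0.096 to 0.30 for miR-132-5p and -0.63 to 1.10 for miR-132-3p. The cause of these changes was not tested.

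Groups that did not overlap on both sides numbered 5, and 4 or 5 under the other scalings and with known miRNAs only, but only 1 of the 5 was the same with the library total. With 3 libraries a group and a median SE of 0.684, the data limit mainly the size of interactions of abundant miRNAs. Not all of these were limited closely, as miR-124-3p had an SE of 1.05 and let-7c-5p an SE of 0.84.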

Other observations

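Both arms of a hairpin are cut from one precursor, and 220 pairs of arms were among the 780 miRNAs. Their interaction values had the same sign in 134 pairs (60.9%), with a Pearson's r of 0.297 across pairs, a description over pairs that share all 12 libraries. Pairs were formed by identical names, so miR-29b-3p and miR-29b-1-5p were not among them. These arms, picked after their values were seen, were at -0.74 and 1.40, neither of them called. Without MC replicate 16 they were at -0.30 and -0.13.

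Seed families could be formed only from miRNAs matched to a RefSeq sequence. The 4 matched miRNAs with the miR-30 seed, miR-384-5p, miR-30a-5p, miR-30c-5p and miR-30e-5p, had a median of -0.31 with 3 negative. The unmatched miR-30d-5p and miR-30b-5p were at -0.27 and -0.71. The 5 miRNAs with the miR-92 seed had -0.30 with 4 negative, which was 0.26 without MS replicate 3 and -0.11 without MS replicate 3 and CS replicate 10. The 6 miRNAs with the miR-16 seed had -0.20, which was 0.14 without MC replicate 16. The 4 miR-181 arms with a common seed had 0.27. With the library total as scale this was -0.22, against -0.27 over all miRNAs. The 5 minor arms of let-7 and miR-98 with a common seed had -0.00605, which was 0.43 with 4 positive without MC replicate 16.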
